A study of Homo sapiens with 6 samples.

Results

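A set of 10 genes of the histone H3 lysine 4 (H3K4) methyltransferase complexes were examined in Jurkat cells kept in suspension or in a collagen gel. The enzyme genes were KMT2A, KMT2B, KMT2C, KMT2D, SETD1A and SETD1B, and the genes of the shared core were WDR5, ASH2L, RBBP5 and DPY30. They were chosen by name, each by its probe set of highest mean over the 6 arrays, and 9 of the 10 were measured among 17687 genes. SETD1B was not matched to a probe set by the platform's gene table and was not analysed here. Each of the other 9 had 1 probe set, so no choice between probe sets was needed.

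All samples were Jurkat cells, an established line that comes from a patient's acute leukaemia of T cells (T-ALL). Cells of 3 samples stayed in suspension for 3 h in RPMI medium with 10% serum. Cells of the other 3 were mixed into bovine type I collagen at 1.7 mg/mL, which set for 1 h at 37 °C and was then covered with medium for 2 h, and these are called 3D here. The labels number the biological replicates 1 to 3 in each group without saying what separated them, so p-values measure the spread between these samples, which may be technical.

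Levels below are log2 values as deposited, from whole-transcript Affymetrix arrays, so that a difference of 1 is a 2-fold change. Array medians lay between 5.55 and 5.64, and pairwise correlations between arrays over all genes ran from 0.971 to 0.991. With 3 arrays a group, precision is limited by their number. Of 10 T cell markers, means over the 6 arrays ran from 7.25 to 11.32. Of 20 measured markers of other cell types they ran from 2.71 to 8.28. Among these 20, 0 had an unadjusted p under 0.05 between the groups (limma), against 9.87% of all genes. Of the T cell markers 7 were lower and 3 higher in 3D, and the groups did not overlap for 3, all lower, against 8.03% of all genes. CD247, the zeta chain of the T cell receptor complex, was the 1 of 10 under that limit of unadjusted p, near the 9.87% of all genes. Its log2 difference was -0.52 (limma adjusted p 0.380). The part of this in the results below was not tested. Of the 4 measured B cell markers, CD79A and BLK had means of 8.28 and 7.69, while PAX5 had 5.24 and MS4A1 3.14. The RNA came from whole samples of this 1 line, so a change in some of the cells and a smaller change in all of them cannot be told apart.

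Methylation of H3K4 marks active promoters and enhancers. It is written by SET-domain enzymes that work in complexes with a shared core of WDR5, RBBP5, ASH2L and DPY30, without which the enzymes are weak. SETD1A and SETD1B carry much of the trimethylation at active promoters, KMT2A and KMT2B act at promoters of developmental genes such as the HOX clusters, and KMT2C and KMT2D prime enhancers. KMT2A, also called MLL, is known in leukaemia for rearrangements that fuse it to other genes.

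The promoter windows of KMT2A, KMT2B and KMT2C are shown because these enzyme genes had the 3 largest differences between the groups among the 9, with KMT2B on the lower side. Each runs from 250 bases before to 50 after the gene's start, 5′ to 3′ on the gene's strand, as given by RefSeq for GRCh38.p14, and 7 of the 10 genes had such a window. Capitals mark the GC box GGGCGG on either strand (CCGCCC on the other), the binding motif of SP and KLF factors, and in KMT2B also AAGATGG, the core of a motif of the factor YY1. The KMT2A window is chr11:118436242-118436541 on the plus strand, the KMT2B window chr19:35717753-35718052 on the plus strand, and the KMT2C window chr7:152435954-152436253 on the minus strand.
KMT2A: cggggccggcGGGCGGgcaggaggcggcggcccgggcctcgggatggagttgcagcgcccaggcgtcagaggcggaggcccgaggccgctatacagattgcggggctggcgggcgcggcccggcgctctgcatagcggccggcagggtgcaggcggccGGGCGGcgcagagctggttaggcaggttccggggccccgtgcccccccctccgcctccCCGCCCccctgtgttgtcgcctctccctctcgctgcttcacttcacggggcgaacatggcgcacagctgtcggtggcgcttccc
KMT2B: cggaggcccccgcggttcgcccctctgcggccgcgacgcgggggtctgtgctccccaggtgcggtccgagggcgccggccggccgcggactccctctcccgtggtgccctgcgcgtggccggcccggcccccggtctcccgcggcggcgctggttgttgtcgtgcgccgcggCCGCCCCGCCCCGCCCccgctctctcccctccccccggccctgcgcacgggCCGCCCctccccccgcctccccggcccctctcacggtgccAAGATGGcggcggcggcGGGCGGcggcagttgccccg
KMT2C: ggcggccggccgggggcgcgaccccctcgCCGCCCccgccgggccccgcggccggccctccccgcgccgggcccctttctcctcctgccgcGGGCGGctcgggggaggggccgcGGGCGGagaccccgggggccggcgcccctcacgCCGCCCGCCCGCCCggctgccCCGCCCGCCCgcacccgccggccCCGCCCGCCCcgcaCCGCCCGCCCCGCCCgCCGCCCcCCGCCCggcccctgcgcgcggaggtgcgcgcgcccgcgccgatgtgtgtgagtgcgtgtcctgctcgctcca

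All 3 windows were rich in CpG. The KMT2C window held 56 CG dinucleotides, a number reached by 0.276% of the 35116 promoter windows in the table, the KMT2B window 48 (1.98% of windows reach it) and the KMT2A window 36 (12.7%). GC box matches, counted with overlaps, numbered 15 in KMT2C, 5 in KMT2B and 3 in KMT2A, and 45.0% of all windows held at least 1. The letters AAGATGG, searched on both strands, began at base 14 after the start in KMT2B and did not overlap a GC box. They were in 5.84% of all windows and not in those of KMT2A and KMT2C. A match is a description of letters, not of a bound site.

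None of the 9 genes passed the test of 3D against suspension. Limma, with Benjamini-Hochberg adjustment over all 17687 genes, gave them adjusted p from 0.513 to 0.995, and 0 of all genes passed (0%). At an unadjusted p under 0.05 there were 0 of the 9, against 9.87% of all genes, of which 5.9% were higher and 3.97% lower in 3D. A fit that took the replicate number as a block called 0 of the 9 at an adjusted p under 0.05 and 0.0905% of all genes. Their median log2 difference was -0.07, with 4 higher and 5 lower in 3D, and that of all genes was -0.02. The groups did not overlap for 2 of the 9, KMT2A and KMT2C, both higher in 3D, against 16.3% of all genes (8.28% higher and 8.03% lower). In 2 of the 9 all replicate pairs went in 1 direction, against 40.1% of all genes.

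**Figure D1:**
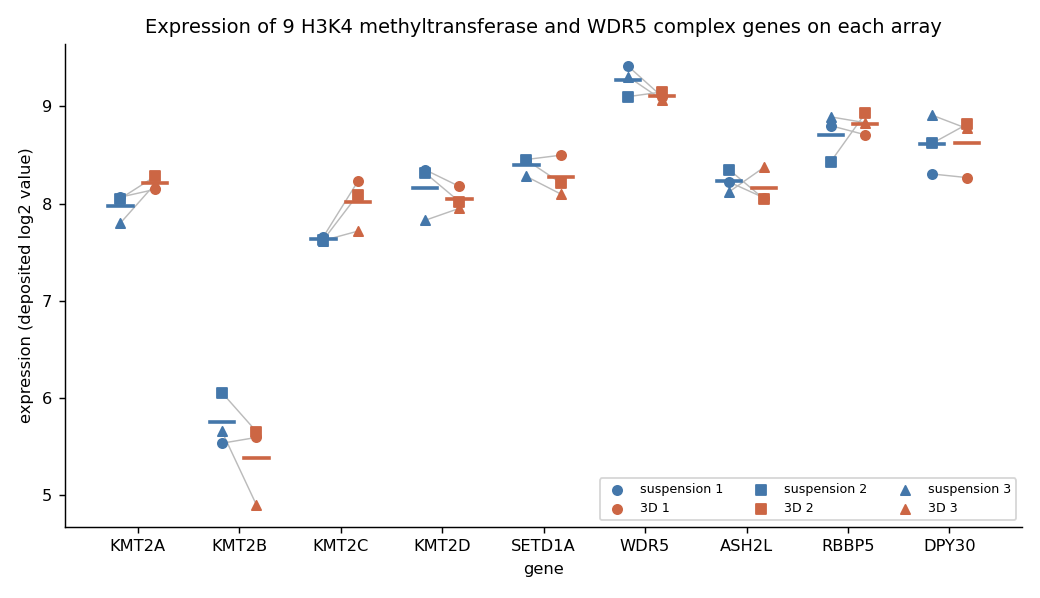
The deposited log2 value (vertical axis) of each of the 9 genes on each array, with suspension in blue, 3D in orange, symbols for replicates 1 to 3, grey lines between same-numbered arrays and bars for group means. KMT2A and KMT2C are the 2 genes with no overlap between groups, and levels of different genes come from different probe sets and are not to be compared.

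KMT2C, an enzyme gene of enhancer methylation, had the smallest p of the 9. It measured 7.66, 7.63 and 7.62 on the suspension arrays and 8.23, 8.09 and 7.72 on the 3D arrays, each in the order of replicates 1, 2 and 3, which holds for all genes below. The suspension arrays lay within 0.04 of each other (SD 0.02), and 3D replicate 3 stood only 0.06 above the highest of them. 3D exceeded suspension by a log2 difference of 0.38 ± 0.17 (SE), or 1.30-fold, with a 95% interval from -0.01 to 0.76 and an unadjusted p of 0.0526 (limma, adjusted p 0.513). A difference at least as high was measured for 8.44% of all genes. In the blocked fit the unadjusted p was 0.0325 (adjusted p 0.247), which makes KMT2C the 1 of 9 under 0.05 where 17.4% of all genes were, and the 95% interval, from 0.04 to 0.72, excluded 0. The blocked p was over 0.05 without replicate 1 (difference 0.28, p 0.172) and without replicate 2 (0.33, p 0.0994). Unblocked, the difference was 0.53 without 3D replicate 3 (unadjusted p 0.0144, adjusted p 0.806, limma) and 0.27 without 3D replicate 1 (unadjusted p 0.190).

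KMT2D, its close relative, measured 8.35, 8.32 and 7.83 in suspension and 8.18, 8.02 and 7.95 in 3D. The groups overlapped, as suspension replicate 3 was the lowest of the 6 arrays. The log2 difference was -0.12 ± 0.18 (SE), with a 95% interval from -0.52 to 0.29 (limma adjusted p 0.852). It was -0.28 with suspension replicate 3 left out, -0.02 with suspension replicate 1 left out and -0.04 with suspension replicate 2 left out.

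KMT2A, the gene of the MLL protein, measured 8.07, 8.05 and 7.80 in suspension and 8.15, 8.28 and 8.20 in 3D. The groups did not overlap, and the gap between them was 0.08. Its log2 difference of 3D minus suspension was 0.24 ± 0.16 (SE), or 1.18-fold, with a 95% interval from -0.11 to 0.58 (limma adjusted p 0.623). It was 0.15 without suspension replicate 3, the lowest array.

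KMT2B, the paralogue of KMT2A, was the dimmest of the 9 probe sets, with a mean of 5.56 against a median of 5.78 over all genes, so that whether it was well above background is not known here. It measured 5.53, 6.05 and 5.66 in suspension and 5.59, 5.65 and 4.90 in 3D. The values of 3D replicates 1 and 2 lay within the range of suspension, and 3D replicate 3 lay below all other arrays. Its log2 difference was -0.37 ± 0.23 (SE), or 1.29-fold lower in 3D, with a 95% interval from -0.87 to 0.14 (limma adjusted p 0.605). Without 3D replicate 3 the difference was -0.12, and without suspension replicate 2 it was -0.21.

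SETD1A, an enzyme gene of promoter trimethylation, measured 8.45, 8.45 and 8.28 in suspension and 8.50, 8.21 and 8.10 in 3D. The highest and the lowest of the 6 values were both 3D arrays. The log2 difference was -0.12 ± 0.17 (SE), with a 95% interval from -0.49 to 0.24 (limma adjusted p 0.821). It was -0.04 without 3D replicate 3 and -0.24 without 3D replicate 1.

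**Figure D2:**
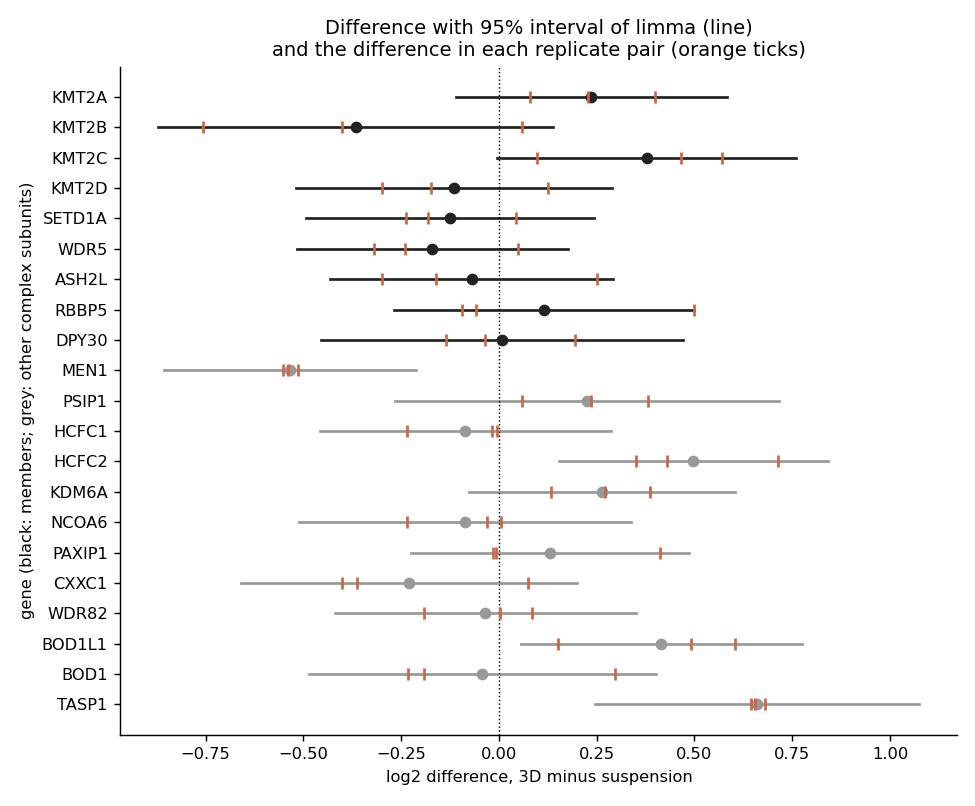
The log2 difference of 3D minus suspension (horizontal axis) for the 9 genes in black and 12 others in grey. The 12 are other subunits of the same complexes and the protease TASP1. Points carry the 95% interval of limma, and orange ticks are the differences of the 3 replicate pairs. Every interval of the 9 in this unblocked fit includes 0, while MEN1 at -0.53 and TASP1 at 0.66 show pairs that nearly coincide.

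Among the enzymes, the members of both measured paralogue pairs had differences of opposite sign. Whether paralogues differed by unequal amounts was asked with the difference of their log2 values on each array, which cancels what an array does to both genes alike. KMT2A minus KMT2B was 2.53, 2.00 and 2.14 in suspension and 2.55, 2.63 and 3.30 in 3D. The groups did not overlap, although suspension replicate 1 and 3D replicate 1 differed by only 0.02. Suspension averaged 2.23 ± 0.28 and 3D averaged 2.83 ± 0.41 (each SD, n = 3), which differ by 0.60 ± 0.29 (SE). Permuting the 6 arrays exactly gave a two-sided p of 0.1, the lowest value possible with this design. Without 3D replicate 3 the means differed by 0.36.

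KMT2C minus KMT2D was -0.69, -0.69 and -0.21 in suspension and 0.05, 0.07 and -0.23 in 3D. Replicates 1 and 2 differed between the groups by 0.74 and 0.76, and replicate 3 by -0.03. The means differed by 0.49 ± 0.19 (SE), and the exact two-sided permutation test gave p = 0.2. Adjusted over the 2 pairs tested, p was 0.2 for both. The SETD1A and SETD1B pair was not analysed here.

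**Figure D3:**
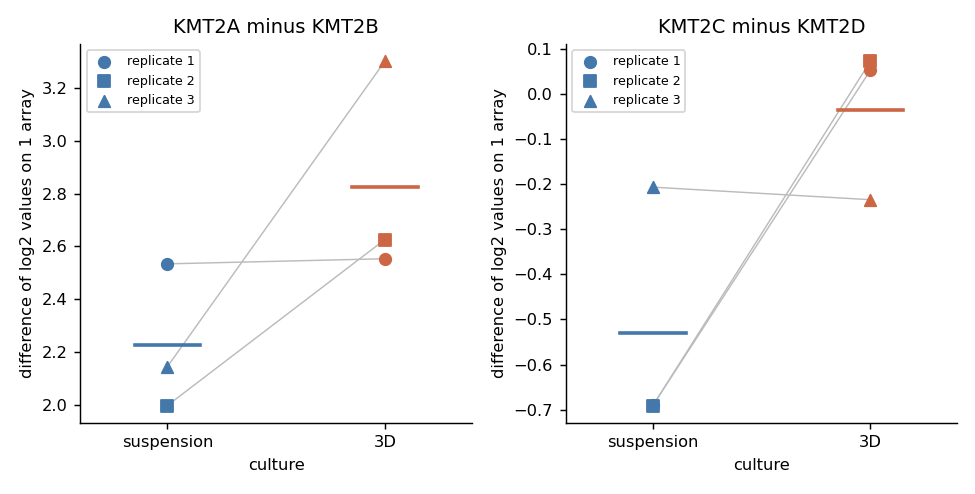
The difference between the log2 values of 2 paralogues on 1 array (vertical axes) in suspension and 3D, with symbols for replicates, grey lines between same-numbered arrays and bars for group means. KMT2A minus KMT2B moves most in replicate 3 (1.16), and KMT2C minus KMT2D in replicates 1 and 2.

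The 4 genes of the shared core all had overlapping groups. WDR5, the WD-repeat protein that anchors the enzymes to the core, measured 9.42, 9.10 and 9.31 in suspension and 9.10, 9.15 and 9.07 in 3D. The 3D arrays lay within 0.08 of each other and near the lowest suspension array. This gave a log2 difference of -0.17 ± 0.16 (SE), with a 95% interval from -0.52 to 0.18 (limma adjusted p 0.728). It became -0.10 when suspension replicate 1 was left out and -0.26 when suspension replicate 2 was.

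RBBP5, which joins the core to the enzyme's SET domain, measured 8.80, 8.43 and 8.89 in suspension and 8.71, 8.93 and 8.83 in 3D. Suspension replicate 2 was the lowest array, and the difference of 0.11 ± 0.17 (SE) became -0.02 without it (limma adjusted p 0.844 with all arrays). The 95% interval ran from -0.27 to 0.50.

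ASH2L, the partner of RBBP5 in stimulating the enzymes, measured 8.22, 8.35 and 8.12 in suspension and 8.06, 8.05 and 8.37 in 3D. Its highest value was 3D replicate 3 while the other 3D arrays were the lowest of all. The log2 difference was -0.07 ± 0.16 (SE), with a 95% interval from -0.43 to 0.29 (limma adjusted p 0.906). It was -0.18 without 3D replicate 3 and -0.01 without suspension replicate 2.

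DPY30, the small subunit that binds ASH2L, measured 8.31, 8.62 and 8.91 in suspension and 8.27, 8.82 and 8.77 in 3D. Replicate 1 was the lowest array of both groups, and the spread within a group (SD 0.30 in each) far exceeded the log2 difference of 0.01 ± 0.21 (SE). The 95% interval from -0.46 to 0.47 leaves room for changes in either direction (limma adjusted p 0.995).

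Gene span, which moved with the difference over all genes, also differed among the 9. KMT2C and KMT2A, with spans of 301 and 90.3 kb in RefSeq (GRCh38.p14), belonged to the fifth of genes with the longest span, where the median log2 difference was 0.06. KMT2D, at 41.8 kb, lay in the next (median 0.05), and the other 6, with 20.9 to 35.8 kb, in the middle one (median -0.02). With each array's trend on span removed, the difference was 0.28 for KMT2C, 0.18 for KMT2A and -0.36 for KMT2B. The part of span in these differences was not tested further.

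Subunits outside the shared core, with the protease TASP1, were counted from a list, and 4 of 12 measured had an unadjusted p under 0.05, 3 higher and 1 lower (limma), against 9.87% of all genes. The median of the 12 was 0.05, and 0 passed over all genes. MEN1 encodes menin, which tethers KMT2A and KMT2B to chromatin. It measured 8.50, 8.54 and 8.50 in suspension and 7.97, 7.99 and 7.98 in 3D. The groups lay far apart relative to their spread (SD 0.02 and 0.01), with a log2 difference of -0.53 ± 0.15 (SE; unadjusted p 0.00390, adjusted p 0.380).

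TASP1, the protease that cleaves KMT2A and KMT2B into their mature forms, measured 7.72, 7.38 and 7.28 in suspension and 8.40, 8.03 and 7.94 in 3D. Every pair differed by nearly the same amount, 0.68, 0.65 and 0.66, and the log2 difference was 0.66 ± 0.19 (SE; limma adjusted p 0.380). HCFC2, a relative of the complex subunit HCFC1, had a difference of 0.50 ± 0.16 (SE) and BOD1L1, a partner of SETD1A, 0.42 ± 0.16, with limma adjusted p of 0.399 and 0.460. Over the 12 the groups did not overlap for 5, against 16.3% of all genes. Values were higher in 3D for 4 of them, these 3 genes and KDM6A, a demethylase gene named after its values were seen (0.26 ± 0.15), and lower for MEN1, against 8.28% and 8.03% of all genes.

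Erasers and readers of the mark were counted from lists as well. Of 4 measured H3K4 demethylases 3 had positive differences, where 8376 of 17687 genes did, the median was 0.26, and 1 had an unadjusted p under 0.05, against 9.87% of all genes. This was KDM5A, a demethylase of trimethylated H3K4, at 0.41 ± 0.19 (SE; limma adjusted p 0.505), and its relative KDM5B had 0.30 ± 0.16, KDM1B 0.22 ± 0.18 and KDM5C -0.01 ± 0.17. Of 13 readers, proteins that bind methylated H3K4, 4 had an unadjusted p under 0.05, 2 in each direction, against 5.9% of all genes higher and 3.97% lower. CHD1, a remodeller, had 0.47 ± 0.18 and ING3, a subunit of an acetyltransferase complex, 0.47 ± 0.20, while ING1, of a deacetylase complex, had -0.53 ± 0.19 and SGF29, of the SAGA complex, -0.35 ± 0.16. Their limma adjusted p ran from 0.427 to 0.506.

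Other methyltransferases reported for H3K4 gave 0 of 5 at an unadjusted p under 0.05 (limma), against 9.87% of all genes. The differences were 0.22 for SMYD1, 0.08 for SMYD2, -0.22 for SMYD3 and 0.04 for PRDM9, and SMYD1 and PRDM9 measured below 3.1 in the mean of each group. Of 9 genes listed as targets of KMT2A and menin in leukaemia, 5 were measured. JMJD1C, a gene of the demethylase family, had 0.49 ± 0.15 (SE, limma adjusted p 0.399), the homeobox gene PBX3 0.46 ± 0.23, its partner MEIS1 -0.18 ± 0.33 and EYA1 -0.05 ± 0.17. MEIS1 and EYA1 were dim, with means of 4.86 and 3.45 against a median of 5.78 over all genes. Whether these 2 were above background is not known here. The HOXA genes of that list were not matched and not analysed here.

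Over these 5 lists together, 10 of 39 measured genes (25.6%) had an unadjusted p under 0.05, 7 higher and 3 lower, against 9.87% of all genes (5.9% higher and 3.97% lower). None passed over all genes (limma, smallest adjusted p 0.380). KDM5A and SGF29 lay just under the unadjusted limit (limma p 0.0492 and 0.0499). The lists were chosen with earlier results of these data known, so the count is a description and not a test. The count was 5 without 3D replicate 3 (6.08% of all genes) and 6 without 3D replicate 1 (11.3%), without 3D replicate 2 (7.78%) or without suspension replicate 1 (9.38%). It was 12 with the replicate block, where 17.4% of all genes were under the limit. MEN1, HCFC2, TASP1 and JMJD1C were among the genes counted in each of the 4 fits with an array left out. TASP1 and JMJD1C had long spans, 534 and 355 kb, and HCFC2 and MEN1 had 42.0 and 7.78 kb. With each array's trend on span removed, the differences were 0.53 for TASP1, 0.38 for JMJD1C, 0.48 for HCFC2 and -0.49 for MEN1. The count was then 9, where 8.97% of all genes were under the limit. The part of span in these differences was not tested. For comparison, 0 of 9 measured genes of Polycomb repressive complex 2 (PRC2) and 2 of 6 H3K9 methyltransferase genes had such a p in the unblocked fit, against 9.87% of all genes. In the blocked fit these counts were 1 of 9 and 2 of 6, against 17.4% of all genes. The difference between these lists and the 9 genes was not tested.

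**Figure D4:**
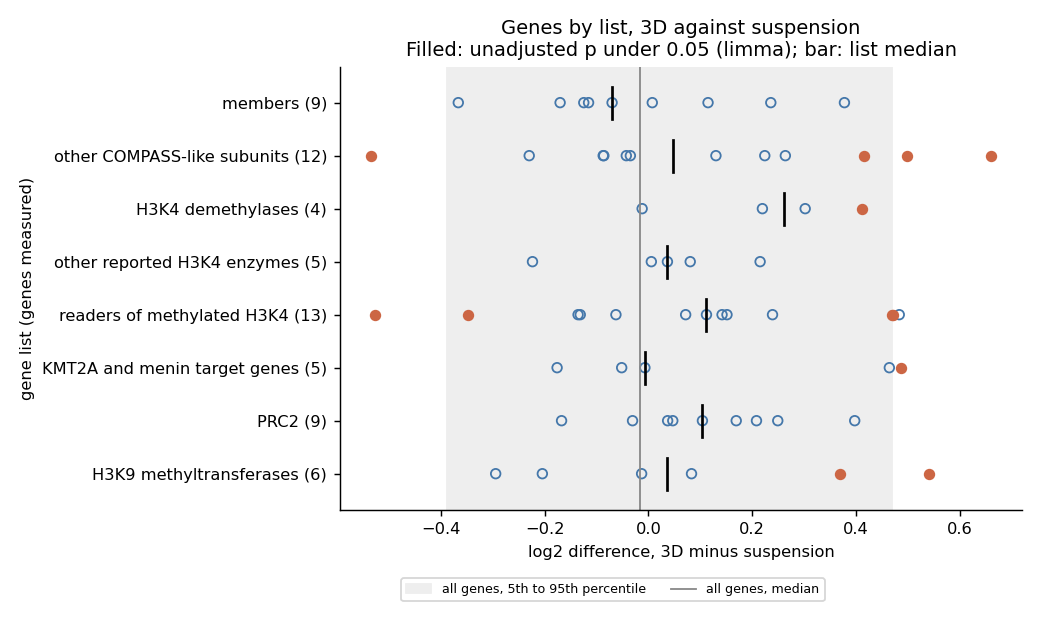
The log2 difference of 3D minus suspension (horizontal axis) of each measured gene by list, filled where limma's unadjusted p was under 0.05, with black bars for list medians and, for all genes, the median as a line and the 5th to 95th percentile shaded. All 9 members (top) are open circles, between -0.37 and 0.38.

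The setting that called most genes left the 9 genes uncalled as well. With the block and only genes of a mean at or above 6, limma called 1199 of 8342 genes at an adjusted p under 0.05 (14.4%), and 0 of the 8 measured there. KMT2C came closest with an adjusted p of 0.0687, followed by KMT2A with 0.237, and KMT2B was left out by the limit. In the same fit 9 of 33 genes of the other H3K4 lists, chosen with earlier results known, were called (27.3%). They were TASP1 (adjusted p 0.00289), HCFC2 (0.0173), JMJD1C (0.0188), ING3 (0.0223), CHD1 (0.0271), PBX3 (0.0437) and BOD1L1 (0.0455), which were higher in 3D, and MEN1 (0.0106) and ING1 (0.0178), which were lower. Of the comparison genes 0 of 9 of PRC2 and 1 of 6 H3K9 methyltransferase genes, SETDB2, were called. Without the block the same 8342 genes gave 0 calls (0%). With the block but no limit on the mean, 0 of the 39 genes of the other H3K4 lists were called (limma, smallest adjusted p 0.0809). That fit called 0.0905% of all 17687 genes.

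**Figure D5:**
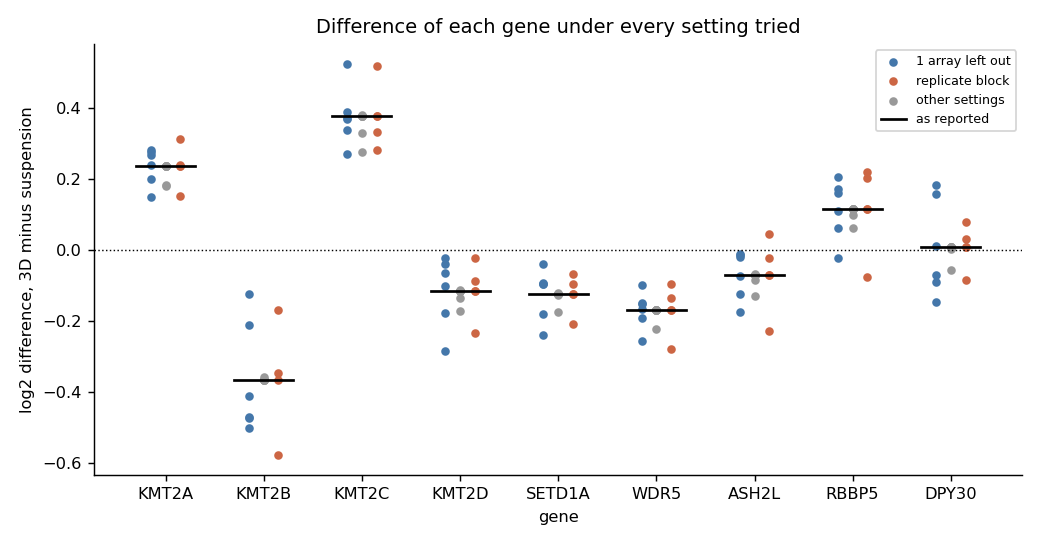
The log2 difference of 3D minus suspension (vertical axis) for each of the 9 genes under every setting tried, with fits that left out 1 array in blue, fits with the replicate block in orange, other settings in grey and the reported value as a black bar. KMT2A and KMT2C stay above 0 and KMT2B, KMT2D, SETD1A and WDR5 below 0 in all settings shown.

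The genes whose values over the 6 arrays followed KMT2C most closely were GUSBP2 (Pearson r 0.989), SEC24A (0.989), INSYN1 (0.986), DTNB (0.985) and PRDM16-DT (0.984). They are the 5 highest of 17686 genes over 6 arrays, which makes high values likely by the choice alone. GUSBP2 belongs to a family of similar copies, so its signal cannot be assigned to 1 copy. None of the other 8 members was among them.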

How the data were processed

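RNA of 3 suspension and 3 3D samples was hybridised to 6 arrays. The authors deposited log2 expression per probe set, made with RMA and the Transcriptome Analysis Console per the submitters' processing notes; versions and the genome build are not given in the sources used here. Because the distributions of arrays are brought close together by RMA, a shift of all genes may not show, and differences of dim probe sets are compressed; array medians still differed slightly. Of 21448 probe sets, 17709 had 1 gene symbol, 0 several and 3739 none in the platform's table; for 20 genes with several probe sets the one with the highest mean was kept. The table had 0 further columns of per-sample values.

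Genes were tested with limma 3.58.1 (R 4.3.3), without a block or filter, two-sided, adjusted over 17687 genes at a threshold of 0.05 (degrees of freedom: 4 residual, 6.79 prior); the fits were tested on simulated data. Paralogue differences were tested by exact permutation over arrays. The members and lists were chosen with earlier results of these data known. All members, up to 4 genes of smallest p per list and the 5 genes most correlated with the member of smallest p were named. The 5 H3K4 lists held 45 genes, of which 39 were measured.

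Same-numbered arrays correlated at 0.521, 0.120 and 0.337 after subtracting group means, all over 0.1, so the numbers count as pairing the arrays. The reported values are from the unblocked fit. Blocked values stand beside them where a side of a limit changed for the 9 genes. They are also given for the counts over the 5 H3K4 lists together and the comparison lists. Of single H3K4 lists, the blocked fit had 5 of 13 readers at an unadjusted p under 0.05 (limma), against 4 unblocked. For targets of KMT2A and menin it had 2 of 5, against 1 unblocked. Of all genes 17.4% were under that limit with the block and 9.87% without it. The basis of the pairing is weak: suspension 2 correlated better with 3D 3 (0.230). Suspension 3 with 3D 2 (0.149) also exceeded the 0.120 of number 2. The labels do not state a pairing. The fit with the replicate block had 2 residual degrees of freedom and 9.78 prior ones. Plots used matplotlib 3.10.9 under Python 3.11.15.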

Additional observations from a re-analysis of the deposited data

How the results depend on the processing

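In 19 alternative settings 0 of the members tested passed at an adjusted p under 0.05 (limma, smallest adjusted p 0.0687; KMT2B was not tested in the 2 settings with a mean at or above 6), and of 169 values of single genes 161 kept their sign. With 1 array left out DPY30 ran from -0.1461 to 0.1831 and RBBP5 from -0.0239 (without suspension replicate 2) to 0.2067. With the replicate block and without replicate 2, DPY30 turned to -0.0862, RBBP5 to -0.0768 and ASH2L to 0.0444, and after quantile normalization DPY30 turned to -0.0555. The number of members at an unadjusted p under 0.05 (limma) was 0 as reported, where 9.87% of all genes were under the limit. With 1 array left out it was 0, or 1 without 3D replicate 3 (6.08% of all genes). It was 1 with the replicate block (17.4%), with the block without replicate 1 (13%) and with the block without replicate 3 (11.3%). It was also 1 with the block among genes of mean 6 or more (32%) and with arrays centred on the median (9.84%). The member was KMT2B in the blocked fit without replicate 1 and KMT2C in the others. The number of other H3K4 genes at that limit, 10 as reported, ran from 5 to 9 with 1 array left out. With the block without replicate 1 it was 5 of 39, where 13% of all genes tested were under the limit. It was 12 with the block and 12 with the block among genes of mean 6 or more. There 17.4% and 32% of all genes tested were under the limit. The median of the members stayed between -0.13 and -0.02, and both paralogue differences stayed above 0 in all 14 settings run, at 0.32 to 0.89 for KMT2A and KMT2B and 0.36 to 0.75 for KMT2C and KMT2D. The exact p of these pairs with the replicate block was 0.25 and 0.5, where 0.25 is the smallest possible. The cause of these shifts was not tested. SETD1A minus SETD1B was not run. Detection calls were not used here, so signal over background is unknown, which limits KMT2B most. The replicate block changed no call at an adjusted p under 0.05 for the 9 genes.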
